A study of Mus musculus with 46 samples.

Results

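The liver response to a particle-free sunscreen formulation was compared between pregnant and virgin mice, over 23 of the 46 arrays of the study. All mice were of the hairless stock SKH:QS. The 4 groups were pregnant mice given the formulation (6 mice), pregnant untreated mice (5 mice), virgin mice given the formulation (6 mice) and virgin untreated mice (6 mice), with 1 array of liver RNA per mouse. The sunscreen went onto the back 6 times over 4 days and livers were taken on day 5, at about day 17 of gestation in the pregnant mice. The other 23 arrays came from mice given the same kind of sunscreen with zinc oxide particles, and they entered the fits as groups of their own. Mice were housed singly, the protocol puts a collar against licking on the mice without naming the untreated ones apart, and all were killed by an injection of Xylase and ketamine followed by cervical dislocation. The arrays were chosen by their labels alone, so no expression value decided which of them were used.

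Pregnant and virgin mice were handled as separate experiments. Array medians lay between 3.98 and 4.12 on the log2 scale in the pregnant experiment and between 4.66 and 4.90 in the virgin experiment. For this reason no level is set across experiments, and pregnancy is compared only through responses. Pregnancy and experiment cannot be told apart in this design. A response is the change on the log2 scale of formulation minus untreated within an experiment, and the difference of responses is the pregnant response minus the virgin response. A gene was called where limma gave a Benjamini-Hochberg adjusted p under 0.05 over all 23410 probe sets with a gene symbol. Errors written after ± are standard errors of the log2 change, except where SD is stated. Arrays within an experiment carried labels of separate mice, and their number limits the precision.

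The liver answers inflammation elsewhere in the body with the acute-phase response, in which hepatocytes secrete serum amyloid A, orosomucoid and haptoglobin under cytokines that act through STAT3 and C/EBP factors. Immediate early genes such as Jun, Fos and Egr1 need no new protein to be switched on, and they rise quickly and briefly in liver after many kinds of stimulus. Another group of liver genes differs between the sexes because growth hormone is released in a different rhythm in males and females, and pregnancy alters that hormone setting. These programmes are background here, and which of them a formulation response includes was read from the arrays.

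The acute-phase part of the response was present in pregnant and in virgin mice, whereas the immediate early part was called in virgin mice and not in pregnant mice. Orm2 rose by 3.06 ± 0.20 in pregnant mice and by 3.08 ± 0.30 in virgin mice on the log2 scale. Jun changed by -0.39 ± 0.29 in pregnant mice and rose by 2.79 ± 0.29 in virgin mice, a difference of -3.18 ± 0.43 (limma adjusted p = 7.46e-05). A further group of hepatocyte transcripts, among them Cyp2c67, Hsd3b2 and Keg1, fell in virgin mice and was not called in pregnant mice. In total 34 probe sets were called for the difference of responses, 18 with a higher (0.0769%) and 16 with a lower pregnant response (0.0683%), together 0.145% of those tested. They stood for 29 genes with a probe set of their own, 16 with a higher response in pregnant mice (0.0802% of 19938 genes) and 13 with a lower one (0.0652%). The 5 other probe sets matched several genes and are not named.

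**Figure D1:**
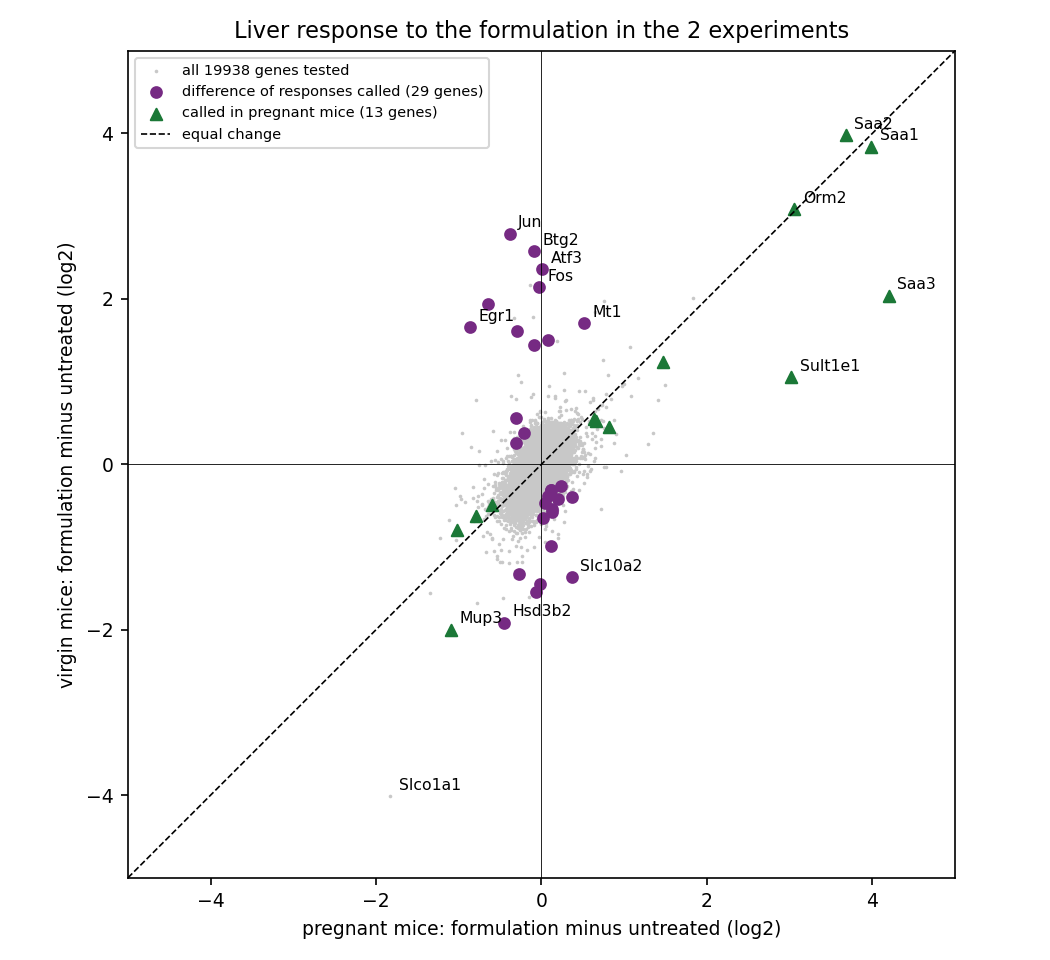
Each point is a gene, with its log2 change of formulation minus untreated in pregnant mice on the horizontal axis and in virgin mice on the vertical axis. Saa1, Saa2 and Orm2 lie on the dashed line of equal change, while the called differences lie in a band near 0 on the pregnant axis, from -0.87 for Egr1 to 0.51 for Mt1.

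The called genes can be described by their change in each experiment. All 29 were also called in virgin mice, where 5237 genes or 26.3% were. In pregnant mice limma called 0 of the 29, with 7 at an unadjusted p under 0.05, where 13 genes or 0.0652% were called, so a count of 0 is near the background share. In each of the 29 the virgin change had the sign opposite to the difference, and in 28 it was larger in size than the pregnant change. In virgin mice every formulation array lay beyond every untreated array for 22 of the 29, 10 of them higher and 12 lower, where such a separation held upwards for 2.76% and downwards for 6.45% of all genes. In pregnant mice this held for 0 of the 29, against 0.913% upwards and 1.39% downwards among all genes, which is again near the background. The virgin response enters the difference itself, so its size and opposite sign largely follow from the choice of genes, and these counts are no separate test. Leaving out pregnant untreated replicate 1 lowered the 34 calls to 18 and leaving out virgin untreated replicate 4 lowered them to 20.

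**Figure D2:**
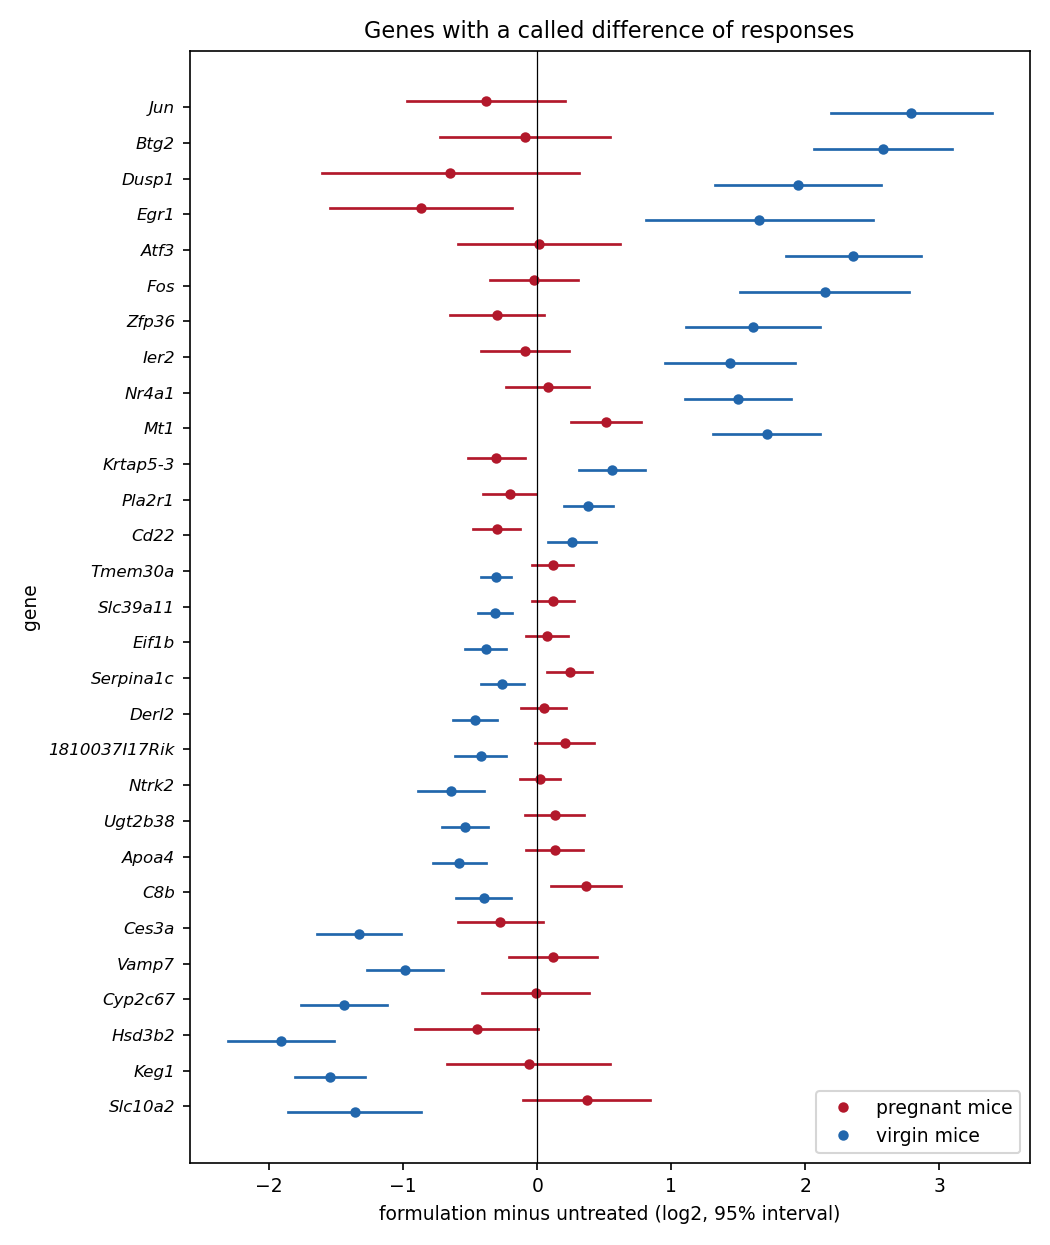
Log2 change of formulation minus untreated, with its 95% interval, for the 29 genes whose difference of responses was called, in pregnant mice (red, upper of each pair) and virgin mice (blue, lower). Intervals in virgin mice lie off 0 for every gene, from Jun at 2.79 to Hsd3b2 at -1.91.

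Promoter sequence is shown for members of the 2 groups that moved together, the immediate early genes with a called difference and the acute-phase genes called in both experiments. The 250 bases before the RefSeq start of each gene (build GRCm38.p6) were searched on both strands for the cAMP response element TGACGTCA, for the CArG box bound by serum response factor and for the C/EBP core TTNNGCAA. Of the 9 immediate early genes 7 had a promoter entry, and of the 8 acute-phase genes 6 had. Capitals mark the match, and each sequence runs 5′ to 3′ towards the start of its gene.
Btg2 (chr1:134079156-134079405, minus strand): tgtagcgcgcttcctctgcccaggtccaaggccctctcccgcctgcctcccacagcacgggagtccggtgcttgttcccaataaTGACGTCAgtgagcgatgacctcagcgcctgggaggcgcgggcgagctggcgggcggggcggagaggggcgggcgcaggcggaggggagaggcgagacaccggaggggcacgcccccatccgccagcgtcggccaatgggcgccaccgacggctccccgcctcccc
Dusp1 (chr17:26508473-26508722, minus strand): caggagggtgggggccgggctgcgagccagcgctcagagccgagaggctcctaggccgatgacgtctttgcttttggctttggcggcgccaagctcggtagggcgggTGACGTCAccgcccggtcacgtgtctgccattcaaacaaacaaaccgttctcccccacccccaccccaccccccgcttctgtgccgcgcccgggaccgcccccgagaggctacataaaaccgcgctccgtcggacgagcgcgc
Zfp36 (chr7:28379229-28379478, minus strand): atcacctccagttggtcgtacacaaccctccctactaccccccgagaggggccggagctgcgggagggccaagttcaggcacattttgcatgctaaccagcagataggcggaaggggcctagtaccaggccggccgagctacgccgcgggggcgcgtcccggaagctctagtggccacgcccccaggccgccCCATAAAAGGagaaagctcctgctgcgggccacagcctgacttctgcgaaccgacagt
Saa1 (chr7:46742981-46743230, minus strand): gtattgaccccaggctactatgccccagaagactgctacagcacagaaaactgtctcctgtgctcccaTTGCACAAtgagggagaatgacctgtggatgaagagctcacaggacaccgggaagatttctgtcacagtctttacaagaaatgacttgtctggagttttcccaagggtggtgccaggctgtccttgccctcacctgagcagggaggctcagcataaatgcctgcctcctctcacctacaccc
Orm2 (chr4:63362199-63362448, plus strand): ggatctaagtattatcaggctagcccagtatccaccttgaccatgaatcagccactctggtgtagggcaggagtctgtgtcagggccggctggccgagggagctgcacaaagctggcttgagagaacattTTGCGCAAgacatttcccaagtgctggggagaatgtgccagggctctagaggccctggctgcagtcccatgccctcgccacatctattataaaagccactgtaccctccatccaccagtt

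The cAMP response element stood in the windows of Btg2 and Dusp1, which is 2 of 7 immediate early genes, against 1.62% of 27025 promoters. It began 166 and 143 bases before the start in these genes. A CArG box stood before Zfp36 alone of the 7 (1.4% of all promoters), 58 bases before the start. The C/EBP core stood before 5 of 6 acute-phase genes, Saa1, Saa2, Saa3, Orm2 and Orm3, against 9.55% of all promoters. These 5 belong to the Saa and Orm families of close copies, so they are not separate instances. Saa1 and Saa2 carry the same match, TTGCACAA, beginning 182 and 183 bases before the start. No C/EBP core was found in the windows of the 7 immediate early genes and no cAMP response element in those of the 6 acute-phase genes. A match of letters is a description of these windows and not a site of binding.

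Acute-phase genes were the main shared part of the response. Of 38 measured acute-phase genes 8 were called higher and 0 lower in pregnant mice (0.0451% of all genes were called higher), and 23 were called higher and 1 lower in virgin mice (11.6% and 14.7% of all genes). The median change of the list was 0.40 in pregnant mice and 0.41 in virgin mice, beside 0.01 and 0.03 over all genes. The median difference of responses was 0.01, and the list member with a called difference was Mt1, which belongs to the metallothioneins.

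Saa1 encodes a serum amyloid A protein, which travels on high-density lipoprotein. Its lowest, median and highest values were 9.05, 10.90 and 11.23 in pregnant formulation mice, and the pregnant untreated mice had 6.74, 7.01, 7.07, 5.20 and 6.95. In virgin formulation mice it had 6.41, 9.83 and 10.86, against 4.89, 5.76 and 6.29 in virgin untreated mice. In both experiments all formulation arrays lay above all untreated arrays; the lowest virgin formulation array was replicate 4, close to the highest untreated one. Saa1 rose by 3.99 ± 0.40 in pregnant mice and by 3.84 ± 0.52 in virgin mice (limma adjusted p = 5.82e-06 and 3.58e-05). The difference was 0.15 with a 95% interval from -1.28 to 1.57, which leaves room for more than a 2-fold difference either way.

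Orm2, an orosomucoid or alpha-1-acid glycoprotein gene, gave a narrower interval. The lowest, median and highest values were 10.95, 11.22 and 11.56 in pregnant formulation mice, and the pregnant untreated mice had 8.08, 9.09, 7.62, 8.13 and 7.92. In virgin formulation mice it had 9.53, 11.45 and 11.68, and virgin untreated mice 7.02, 8.27 and 8.72. The groups did not overlap in either experiment. The difference of the Orm2 responses was -0.02 ± 0.38, with an interval from -0.80 to 0.75 (limma adjusted p = 0.993).

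Saa2 rose by 3.68 ± 0.40 in pregnant mice and by 3.98 ± 0.55 in virgin mice. Saa3, a serum amyloid A gene that macrophages also use, had 8.23, 9.18 and 10.73 in pregnant formulation mice and 5.21, 5.39, 4.86, 5.07 and 5.26 in pregnant untreated mice. Virgin formulation mice had 6.45, 7.37 and 9.98 and virgin untreated mice 4.94, 5.82 and 6.34, again without overlap. It rose by 4.20 ± 0.59 in pregnant mice and by 2.04 ± 0.46 in virgin mice, and the difference of 2.16 ± 0.79 missed the threshold (limma adjusted p = 0.308). Orm3, Orm1, Hp and Apcs rose in both experiments as well. Orm3 rose by 1.47 ± 0.27 in pregnant mice and 1.23 ± 0.21 in virgin mice, and Orm1 by 0.82 ± 0.10 in pregnant mice and 0.45 ± 0.11 in virgin mice. Hp, which encodes the haemoglobin scavenger haptoglobin, rose by 0.66 ± 0.11 in pregnant mice and 0.52 ± 0.09 in virgin mice. With an array left out the pregnant call of Orm3 held in 4 of 11 fits and that of Hp in 10, all but the one without pregnant untreated replicate 1. Apcs, the serum amyloid P gene, rose by 0.64 ± 0.12 in pregnant mice and 0.55 ± 0.13 in virgin mice, and its pregnant call held in 1 of 11 fits with an array left out, the one without untreated replicate 5. The Saa and Orm genes are families of close copies, and probes may pick up more than 1 member.

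**Figure D3:**
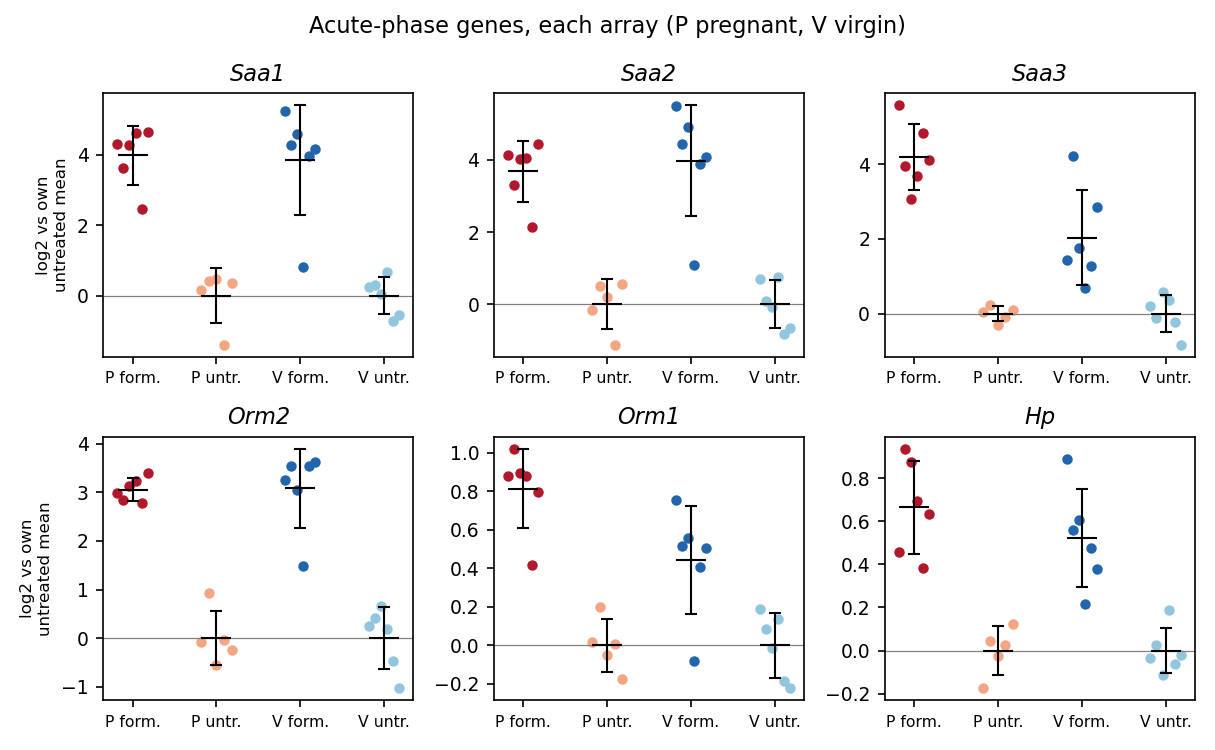
Log2 value of each array minus the mean of the untreated arrays of its own experiment for 6 acute-phase genes, with group mean and SD (bars). P form. and P untr. are pregnant formulation (6 arrays) and untreated (5), V form. and V untr. are virgin formulation and untreated (6 each), and formulation arrays stand above untreated arrays in both experiments except for an overlap of Orm1 in virgin mice.

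Immediate early genes made up the 7 largest called differences by size, from Jun to Zfp36. AP-1 genes encode the Jun, Fos and Atf proteins of the AP-1 transcription factor. Of 11 such genes 3 had a called lower response in pregnant mice (0.0652% of all genes). All 11 had a difference below 0, beside 10504 of 19938 genes. In virgin mice 10 of the 11 rose (11.6% of all genes), with a median of 0.43, and in pregnant mice limma called 0, with 0 at an unadjusted p under 0.05 and a median of 0.06. Among 42 other immediate early genes 6 had a called lower response in pregnant mice (0.0652% of all genes). In virgin mice 22 of the 42 rose and 1 fell (11.6% and 14.7% of all genes), with a median of 0.30. In pregnant mice limma called 0, with a median of 0.01 and 8 of the 42 at an unadjusted p under 0.05, beside 2435 of 19938 genes. At 0.0652% of all genes called in pregnant mice, 0 called is near the background for any of the lists.

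Jun encodes the c-Jun subunit of AP-1. It had 5.12, 5.54 and 5.79 (lowest, median and highest) in pregnant formulation mice, and 6.31, 6.17, 5.56, 5.11 and 6.25 in pregnant untreated mice. In virgin formulation mice it had 8.44, 8.92 and 9.27, against 5.75, 6.07 and 6.70 in virgin untreated mice. The pregnant groups overlapped, with 3 untreated mice above every formulation mouse, and the virgin groups were clearly separate.

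Fos, the partner of Jun in AP-1, had 4.50, 4.76 and 5.16 in pregnant formulation mice and 5.32, 4.62, 4.48, 4.53 and 5.08 in pregnant untreated mice. In virgin formulation mice Fos had 5.91, 7.71 and 8.45, and in virgin untreated mice 4.89, 5.55 and 5.82. Its pregnant change was -0.02 ± 0.16 with an interval from -0.36 to 0.32, its virgin change 2.14 ± 0.31, and the difference -2.17 ± 0.38 (limma adjusted p = 0.00334).

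Atf3, a stress-induced member of the ATF family, had 4.21, 4.54 and 4.72 in pregnant formulation mice and 4.71, 4.55, 4.11, 4.13 and 4.86 in pregnant untreated mice. Virgin formulation mice had 6.68, 7.56 and 7.75, all above the virgin untreated mice at 4.65, 5.06 and 5.48. The difference was -2.35 ± 0.40 (limma adjusted p = 0.00274). Junb and Jund, which encode the other Jun proteins, rose in virgin mice by 0.90 ± 0.18 and 0.64 ± 0.12 and changed by 0.28 ± 0.14 and -0.02 ± 0.13 in pregnant mice. Their differences, -0.62 ± 0.24 and -0.66 ± 0.18, were not called (limma adjusted p = 0.343 and 0.14).

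Btg2, an antiproliferative early-response gene, had 5.00, 5.67 and 5.89 in pregnant formulation mice and 6.02, 5.86, 5.03, 5.08 and 6.39 in pregnant untreated mice. Among virgin mice it had 7.13, 7.98 and 8.47 with the formulation and, in untreated mice, 4.96, 5.21 and 5.67. The pregnant groups overlapped and the virgin groups did not, and the difference was -2.67 ± 0.42 (limma adjusted p = 0.000851). Zfp36, which encodes the mRNA-destabilising protein tristetraprolin, differed by -1.91 ± 0.32 (limma adjusted p = 0.00223). Its virgin formulation mice ranged from 7.56 to 9.38 and overlapped the virgin untreated mice, which reached 7.69. Nr4a1, an orphan nuclear receptor gene, differed by -1.42 ± 0.26, with virgin formulation mice between 5.73 and 6.68 and virgin untreated mice between 4.32 and 4.96. Ier2 differed by -1.53 ± 0.30 (limma adjusted p = 0.018), a call that ended without pregnant untreated replicate 1.

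Dusp1, a phosphatase of MAP kinases, and Egr1, a zinc-finger transcription factor gene, carried the widest errors of the group. Dusp1 had 5.35, 7.06 and 7.39 in pregnant formulation mice and 7.70, 8.28, 6.66, 6.58 and 8.24 in pregnant untreated mice. It had 7.87, 9.02 and 9.39 in virgin formulation mice and 6.33, 6.80 and 7.86 in virgin untreated mice. Egr1 had 4.96, 5.17 and 5.64 in pregnant formulation mice and 7.29, 4.83, 6.41, 5.55 and 6.23 in pregnant untreated mice, and 5.63, 8.02 and 8.47 in virgin formulation mice against 5.09, 6.13 and 6.70 in virgin untreated mice. Untreated pregnant mice were uneven for these genes, and 1 virgin formulation mouse lay within the untreated range of Egr1. The differences were -2.59 ± 0.58 for Dusp1 and -2.52 ± 0.57 for Egr1 (limma adjusted p = 0.039 and 0.0404). With each of the 23 arrays left out in turn, Dusp1 was called in 7 fits and Egr1 in 6, whereas Jun, Fos, Atf3, Btg2, Zfp36 and Nr4a1 were called in all 23.

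**Figure D4:**
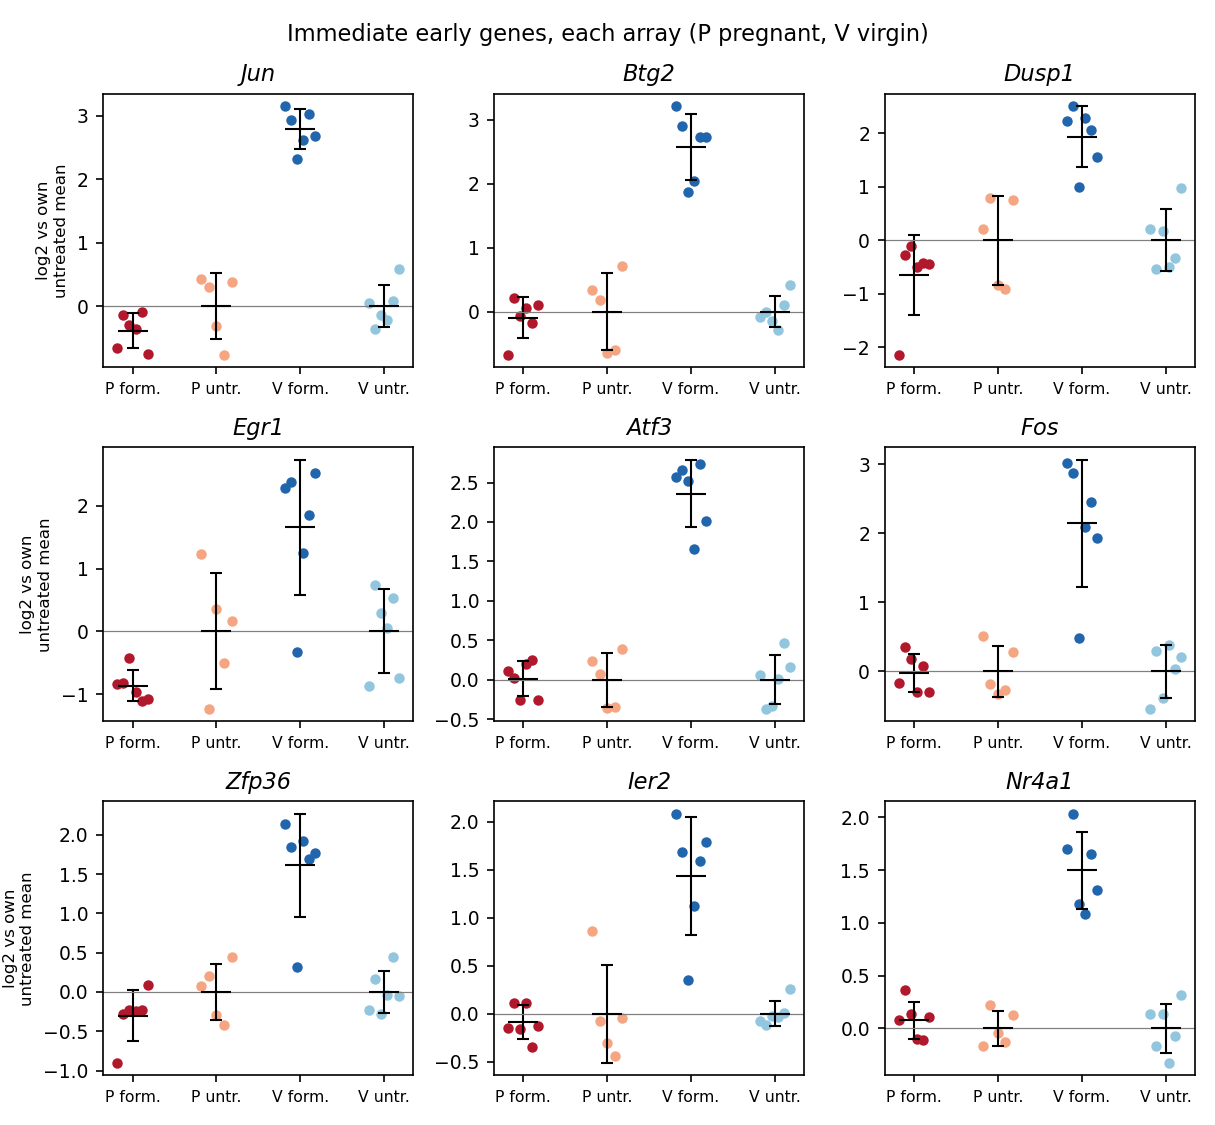
Log2 value of each array minus the mean of the untreated arrays of its own experiment for the 9 immediate early genes with a called difference, with group mean and SD (bars). P form. and P untr. are pregnant formulation (6 arrays) and untreated (5), V form. and V untr. are virgin formulation and untreated (6 each), and virgin formulation stands as the raised group in every panel.

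Of 24 glucocorticoid-responsive genes 14 rose in virgin mice (11.6% of all genes) and 0 were called in pregnant mice (0.0652% of all genes). In pregnant mice 9 had an unadjusted p under 0.05, beside 2435 of 19938 genes, with medians of 0.28 in pregnant mice and 0.55 in virgin mice. A called lower pregnant response was found for 2 of the 24, Dusp1 and Mt1 (0.0652% of all genes). Igfbp1, a liver-made binding protein of insulin-like growth factors that rises in fasting, changed by -0.13 ± 0.45 in pregnant mice and rose by 2.17 ± 0.33 in virgin mice. Its difference of -2.31 ± 0.58 was not called (limma adjusted p = 0.112), although it was in a fit of the 23 compared arrays alone (limma adjusted p = 0.0412). The same held for the insulin receptor substrate gene Irs2, at -0.81 ± 0.23 (limma adjusted p = 0.164, and 0.0264 in the fit of these arrays alone). That fit also lost calls: it called 29 genes, of which 19 were among the 29 called over all 46 arrays. Egr1, Mt1 and Slc10a2 were among the genes no longer called (limma adjusted p = 0.0646, 0.0846 and 0.0644). Ppp1r3g, a glycogen-targeting subunit of protein phosphatase, changed by -0.34 ± 0.41 in pregnant mice and rose by 1.76 ± 0.33 in virgin mice. Virgin formulation replicate 3 had 9.64 for Ppp1r3g and 9.84 for the pyruvate dehydrogenase kinase gene Pdk4, above the group medians of 7.35 and 5.90. Of 22 genes of gluconeogenesis and fasting 6 rose and 5 fell in virgin mice (11.6% and 14.7% of all genes), 0 were called in pregnant mice and 0 had a called difference. Of 17 heat shock genes 1 rose and 2 fell in virgin mice, counts near those shares, and 0 were called for the difference.

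Metallothionein transcripts rose in virgin mice and were not called in pregnant mice, except that both Mt1 and Mt2 were called there without pregnant untreated replicate 2. Mt1, whose protein binds zinc and copper, had 12.01, 12.28 and 12.43 in pregnant formulation mice and 11.38, 12.17, 11.89, 11.30 and 11.88 in pregnant untreated mice. It had 11.58, 12.11 and 12.65 in virgin formulation mice and 9.61, 10.46 and 11.12 in virgin untreated mice. The pregnant change of 0.51 ± 0.13 was not called (limma adjusted p = 0.171), the virgin rise was 1.71 ± 0.19, and the difference was -1.20 ± 0.25 (limma adjusted p = 0.0205). That call ended without virgin untreated replicate 4 or pregnant untreated replicate 2, and in the fit of the 23 compared arrays alone (limma adjusted p = 0.0846). Mt2 changed by 0.76 ± 0.18 in pregnant mice and rose by 1.97 ± 0.28 in virgin mice, with an uncalled difference of -1.21 ± 0.36 (limma adjusted p = 0.188).

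Among 27 genes of zinc handling the called differences were Mt1, with the lower pregnant response, and Slc39a11, with the higher one, and the median difference was 0.00. Slc39a11, a zinc transporter of the ZIP family, changed by 0.12 ± 0.08 in pregnant mice and fell by 0.32 in virgin mice. The ZIP importer gene Slc39a4 had 5.79, 6.09 and 6.29 in pregnant formulation mice and 6.85, 6.27, 6.51, 7.0 and 6.27 in pregnant untreated mice. Virgin formulation mice had 6.76, 7.02 and 7.08, all below the virgin untreated mice at 7.75, 7.98 and 8.22. It changed by -0.49 ± 0.12 in pregnant mice (limma adjusted p = 0.175) and by -1.03 ± 0.10 in virgin mice, and the difference of 0.54 ± 0.16 was not called.

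The genes with a called higher response in pregnant mice had all fallen in virgin mice. Hsd3b2, a 3-beta-hydroxysteroid dehydrogenase, had 3.72, 4.36 and 4.70 in pregnant formulation mice and 4.79, 4.57, 4.81, 5.13 and 4.58 in pregnant untreated mice. It had 4.89, 5.44 and 5.93 in virgin formulation mice against 6.97, 7.25 and 7.88 in virgin untreated mice. The virgin groups were separate and the pregnant groups overlapped. It changed by -0.45 ± 0.22 in pregnant mice and by -1.91 ± 0.19 in virgin mice, a difference of 1.46 ± 0.31 (limma adjusted p = 0.0241). Its pregnant untreated values lay not far above the array medians of that experiment, 3.98 to 4.12. Whether low signal limited its fall in pregnant mice was not tested.

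Cyp2c67, a cytochrome P450 of the 2C family, had 9.49, 9.91 and 10.19 in pregnant formulation mice and 9.89, 9.75, 9.98, 9.85 and 9.88 in pregnant untreated mice. It had 6.99, 7.85 and 7.93 in virgin formulation mice and 8.73, 9.13 and 9.64 in virgin untreated mice. Its change was -0.01 ± 0.19 in pregnant mice and -1.44 ± 0.16 in virgin mice, and the difference of 1.43 ± 0.26 was called in all 23 fits that left out an array. Keg1 changed by -0.06 ± 0.30 in pregnant mice and by -1.55 ± 0.13 in virgin mice. Ces3a, a carboxylesterase, changed by -0.28 ± 0.15 in pregnant mice and by -1.33 ± 0.15 in virgin mice. Both had virgin formulation arrays below all virgin untreated arrays, and their differences, 1.48 ± 0.33 and 1.06 ± 0.23, were called in 9 and 12 of those 23 fits.

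Slc10a2, the apical sodium-dependent bile acid transporter, showed the largest called difference in this direction, 1.73 ± 0.35 (limma adjusted p = 0.0187). It had 4.97, 5.43 and 5.84 in pregnant formulation mice and 5.57, 5.20, 5.04, 3.91 and 5.56 in pregnant untreated mice. It had 3.63, 4.19 and 5.41 in virgin formulation mice and 5.15, 5.68 and 6.38 in virgin untreated mice, so that both pairs of groups overlapped. Without pregnant untreated replicate 4, the mouse at 3.91, the difference was no longer called. Nor was it in the fit of the 23 compared arrays alone (limma adjusted p = 0.0644).

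Vamp7, which encodes a vesicle SNARE protein, differed by 1.10 ± 0.22 and changed by -0.99 ± 0.14 in virgin mice. The secreted or conjugating proteins with smaller called differences were C8b of the complement membrane attack complex (0.77 ± 0.16), the apolipoprotein gene Apoa4 (0.71 ± 0.14), the glucuronosyltransferase gene Ugt2b38 (0.67 ± 0.13) and the antitrypsin gene Serpina1c (0.50 ± 0.11). Ntrk2, the TrkB neurotrophin receptor gene, differed by 0.66 ± 0.15 and Derl2, a factor of endoplasmic reticulum degradation, by 0.52 ± 0.11. Orm1, Hp, Apcs, Acat1, Serpina1c, Eif1b, Tmem30a and Cd22 lie outside the rule for named genes and were chosen after their values were seen. The remaining called genes with a higher pregnant response were 1810037I17Rik (0.63), Eif1b (0.46) and Tmem30a (0.42). Those with a lower one were the keratin-associated Krtap5-3 (-0.86), Pla2r1, a phospholipase A2 receptor (-0.59), and Cd22, a B-cell lectin (-0.56). For Apoa4 the call ended without pregnant untreated replicate 5 and for Tmem30a without pregnant untreated replicate 2, while Vamp7, Ugt2b38 and Krtap5-3 were called in all 23 fits. The others named here lost the call more often. Of the 23 fits C8b was called in 14, Ntrk2 in 10, Derl2 and Pla2r1 in 9, Serpina1c and Cd22 in 8, 1810037I17Rik in 6 and Eif1b in 5. Ntrk2, Cd22 and 1810037I17Rik lay below the 40th percentile of mean intensity and drop out with the dim probe sets. 1810037I17Rik averaged 3.39 in pregnant formulation and 3.19 in pregnant untreated mice, below the pregnant array medians of 3.98 to 4.12. Whether low signal limited the pregnant changes of these genes was not tested.

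Genes with male-biased expression in mouse liver showed the widest gap among the lists. Of 26 measured members 0 were called higher and 1 lower in pregnant mice, against 0 higher and 16 lower in virgin mice (14.7% of all genes were called lower there). The list's median change was -0.05 in pregnant mice and -0.72 in virgin mice, and its median difference was 0.62, beside -0.01 over all genes. The difference lay above 0 for 25 of the 26, beside 9434 of all 19938 genes. It was called higher for 3 (0.0802% of all genes). Slco1a1, an organic anion transporter of hepatocytes, had 3.37, 4.44 and 5.28 in pregnant formulation mice and 7.45, 5.98, 6.06, 5.28 and 6.33 in pregnant untreated mice. It had 2.71, 3.09 and 3.63 in virgin formulation mice and 5.46, 7.27 and 8.49 in virgin untreated mice, lower with the formulation in both experiments, with the nearest pregnant arrays touching at 5.28. It changed by -1.83 ± 0.56 in pregnant mice (limma adjusted p = 0.252) and by -4.02 ± 0.34 in virgin mice, and the difference of 2.19 ± 0.68 was not called (limma adjusted p = 0.215).

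Mup3, a major urinary protein gene of the same list, fell in both experiments. It had 7.74, 7.92 and 8.20 in pregnant formulation mice and 9.62, 8.41, 9.29, 8.45 and 9.31 in pregnant untreated mice. In virgin formulation mice Mup3 had 7.38, 8.40 and 8.82 and virgin untreated mice 9.42, 10.28 and 10.82. The groups were separate in both experiments, and the changes were -1.09 ± 0.21 in pregnant mice and -2.0 ± 0.28 in virgin mice, although the pregnant call held in 3 of 11 fits with an array of that experiment left out. Cyp7b1, an oxysterol hydroxylase, changed by -0.25 ± 0.15 in pregnant mice and by -1.0 ± 0.16 in virgin mice. Of 22 female-biased genes 2 rose and 6 fell in virgin mice (11.6% and 14.7% of all genes), and 1 rose in pregnant mice (0.0451% of all genes). The median change of the female-biased list was -0.18 in pregnant mice and -0.25 in virgin mice. A called higher difference was found for 1 of its 22 genes (0.0802% of all genes). A1bg, in that list, changed by -0.15 ± 0.16 in pregnant mice and by -1.60 ± 0.38 in virgin mice, with an uncalled difference of 1.45 ± 0.45. The Mup, Ces, Cyp2c, Ugt2b, Hsd3b and Serpina1 genes have close copies, so a probe set may measure more than the gene it is named for.

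Pregnant mice had few called changes of their own. The 14 probe sets called there (0.0598%), 9 higher (0.0384%) and 5 lower (0.0214%), stood for 13 genes, 9 higher (0.0451%) and 4 lower (0.0201%). Of these 12 were also called in virgin mice in the same direction, where 11.6% of all genes were called higher and 14.7% lower. A difference of responses was called for 0 of the 13, which is near the background of 0.145% of all genes. Besides the 8 acute-phase genes and Mup3 they were Sult1e1, Ces2e, Me1 and Acat1. Sult1e1, the oestrogen sulfotransferase gene, was the exception. It had 5.94, 7.59 and 8.18 in pregnant formulation mice and 3.51, 6.75, 4.36, 4.18 and 3.20 in pregnant untreated mice. It had 5.85, 7.18 and 7.65 in virgin formulation mice and 4.46, 5.94 and 7.17 in virgin untreated mice, with overlap in the virgin groups and, through untreated replicate 2, in the pregnant groups. It rose by 3.02 ± 0.54 in pregnant mice and changed by 1.05 ± 0.49 in virgin mice (limma adjusted p = 0.113), and the difference of 1.97 ± 0.77 was not called (limma adjusted p = 0.355).

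Ces2e, a carboxylesterase gene, Me1, the cytosolic malic enzyme gene, and Acat1, a mitochondrial thiolase gene, fell in both experiments. Their changes were -1.02 ± 0.19, -0.79 ± 0.14 and -0.60 ± 0.12 in pregnant mice and -0.80 ± 0.14, -0.62 ± 0.13 and -0.49 ± 0.07 in virgin mice. All 3 had formulation arrays below all untreated arrays in both experiments. Each kept its pregnant call in 2 of 11 fits with an array left out, as did Sult1e1. The count of 14 depended on the fit. It was 53 when the 11 arrays were fitted by themselves and 77 in the fit of all 46 arrays, and it fell to between 5 and 9 without any 1 of formulation replicates 1, 2, 3, 4 and 6 or untreated replicates 1, 3, 4 and 5. The 63 genes of the fit of all arrays included 47 called in virgin mice in the same direction and 0 in the opposite direction, beside 26.3% of all genes called there. They included 0 with a called difference, again near the background of 0.145%.

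Across all genes the pregnant response ran mostly in the virgin direction, to an extent that depended on the fit. Of the 5237 genes called in virgin mice 86.5% changed in the same direction in pregnant mice, beside 71.8% of all genes. Genes called higher in virgin mice had a median change of 0.11 in pregnant mice and 0.30 in virgin mice, and genes called lower had -0.16 and -0.34 in the same order. Medians of genes chosen in virgin mice lean towards large virgin changes, so these medians do not tell in which experiment the response was larger. Of the 13 genes called in pregnant mice all but Saa2, Orm2 and Mup3 changed more in pregnant mice, a choice that leans the other way. Among those at least 2-fold higher in virgin mice, 17 of 28 were higher in pregnant mice, with a median of 0.23, and among those at least 2-fold lower, 26 of 27 were lower, with a median of -0.39. Over all 19938 genes the changes of the 2 experiments, which share no array, correlated at 0.59 (Pearson, across genes, which are not independent). With array width as a covariate this correlation was 0.24 and 52.6% of all genes changed the same way, and with the clock score 0.43 and 63.9%. The difference of responses could be bounded within 2-fold by its 95% interval for 98.4% of genes, and for 170 of the 276 genes called at 1.5-fold or more in virgin mice.

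Array width moved with the formulation in both experiments. The interquartile range of an array was 3.11 ± 0.05 in pregnant formulation mice and 3.17 ± 0.03 in pregnant untreated mice (SD, n = 6 and 5, two-sided exact permutation p = 0.026, adjusted over 2 comparisons p = 0.026). It was 2.83 ± 0.05 in virgin formulation mice and 2.97 ± 0.07 in virgin untreated mice (SD, n = 6 each, exact permutation p = 0.00216, adjusted p = 0.00433). With this width as a covariate 12 probe sets were called for the difference of responses, 4 in pregnant mice and 179 in virgin mice, and 74.5% of the virgin-called genes then ran the same way in pregnant mice. Of the 29 genes 9 remained called there, Jun, Fos, Atf3, Btg2, Zfp36, Nr4a1, Cyp2c67, Ugt2b38 and Krtap5-3. The median within-group SD over genes was 0.16 in both formulation groups and 0.15 in both untreated groups.

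Of 20 clock genes 0 were called in pregnant mice, with 11 at an unadjusted p under 0.05 in limma, beside 2435 of 19938 genes. In virgin mice 6 rose and 1 fell (11.6% and 14.7% of all genes), with medians of 0.45 in pregnant mice and 0.31 in virgin mice and 0 called differences. Arntl, which encodes the clock activator BMAL1, had 4.29, 4.74 and 5.31 in pregnant formulation mice and 6.57, 5.27, 6.52, 6.52 and 4.42 in pregnant untreated mice. Virgin formulation mice had 5.50, 6.54 and 6.93 and virgin untreated mice 6.82, 7.04 and 7.36. Untreated pregnant replicates 2 and 5 stood with the formulation mice for Arntl, as they did for Dbp, a clock output gene, at 7.24 and 8.15 against 4.98 to 5.59 in the other untreated mice. A clock score, the mean of output genes minus that of activators and Nfil3 centred on its experiment, ran from -0.30 to 1.11 in pregnant formulation mice and from -2.46 to 1.14 in pregnant untreated mice. It ran from -1.60 to 0.79 in virgin formulation mice and from -1.95 to -1.23 in virgin untreated mice. With the score as a covariate 28 of the 29 genes, all but Egr1, kept their called difference, the count being 42 probe sets in all. The part of clock state in the single responses was not tested.

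In virgin mice 14.7% of all genes fell and 11.6% rose, against which the counts of the metabolic lists are read. Of 42 genes of fatty acid oxidation and PPARA 22 fell in virgin mice and 0 were called in pregnant mice (19 at an unadjusted p under 0.05, beside 2435 of 19938 genes), and both medians were -0.24. Of 40 respiratory chain genes 19 fell in virgin mice, with medians of -0.10 in pregnant mice and -0.16 in virgin mice. Of 28 genes of the unfolded protein response 13 fell and 2 rose in virgin mice, with medians of -0.14 and -0.31. The disulfide isomerase gene Pdia3 changed by -0.10 ± 0.16 in pregnant mice and -0.60 ± 0.14 in virgin mice. Of 31 genes under NRF2 and of glutathione metabolism 11 fell in virgin mice, with medians of -0.15 and -0.17. Gclc, which encodes the catalytic part of glutamate-cysteine ligase, changed by -0.71 ± 0.24 in pregnant mice and -0.87 ± 0.12 in virgin mice. Gstm6, a glutathione transferase gene, changed by 0.01 ± 0.16 in pregnant mice and -0.70 ± 0.13 in virgin mice. For the difference of responses limma called 0 genes in these lists, with 2, 3, 3 and 1 at an unadjusted p under 0.05.

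**Figure D5:**
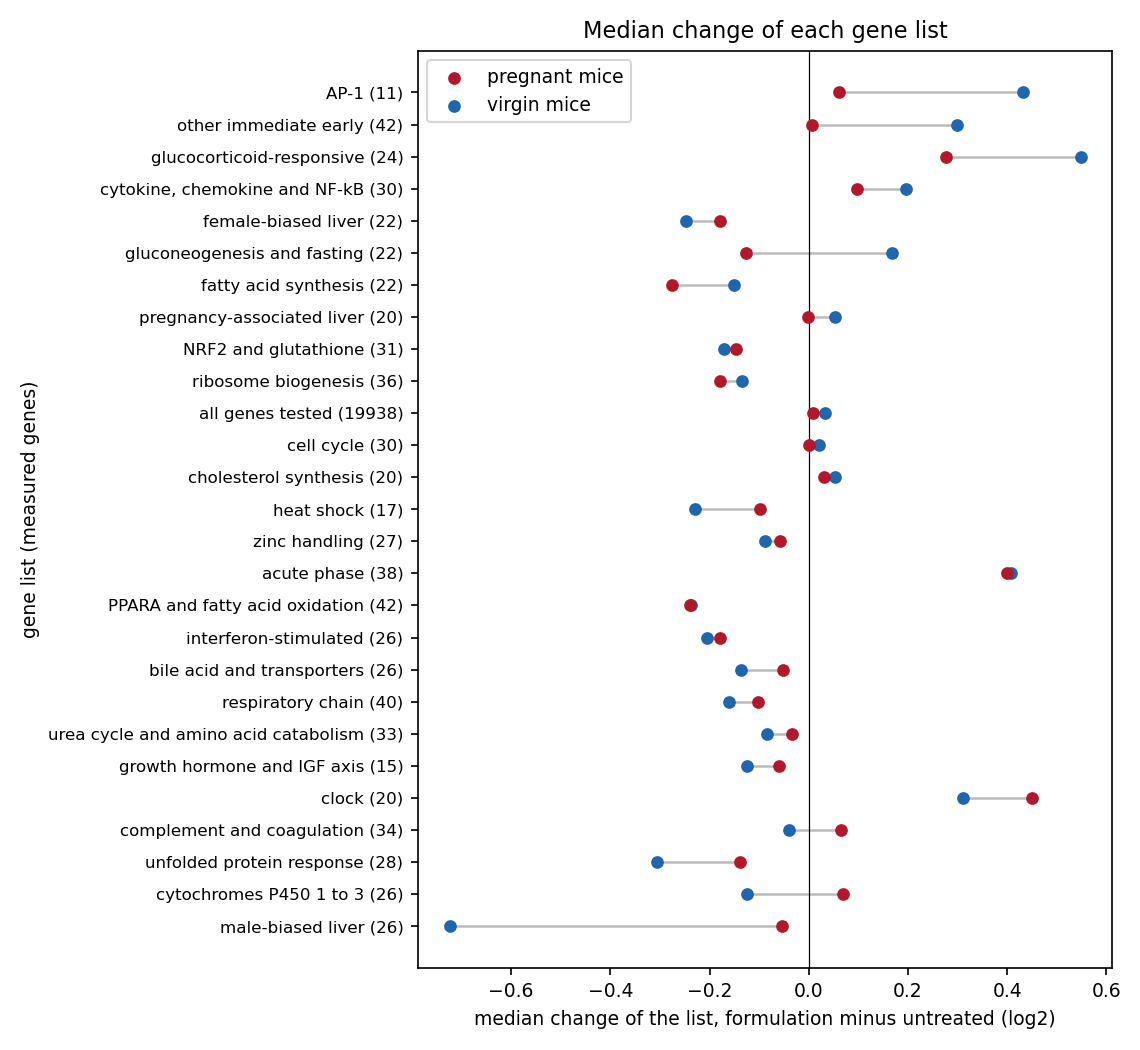
Median log2 change of formulation minus untreated for each pathway list and for all genes, in pregnant mice (red) and virgin mice (blue), with the number of measured genes in parentheses. The acute-phase medians of 0.40 and 0.41 nearly coincide, while the male-biased list lies at -0.05 in pregnant mice and -0.72 in virgin mice.

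Of 34 genes of complement and coagulation 3 rose and 10 fell in virgin mice (11.6% and 14.7% of all genes), 0 were called in pregnant mice and 1, C8b, had a called difference. F11, the coagulation factor XI gene, changed by -0.15 ± 0.10 in pregnant mice and by -0.70 ± 0.12 in virgin mice. Of 26 genes of cytochromes P450 families 1 to 3 a total of 8 fell in virgin mice (14.7% of all genes), and the medians were 0.07 in pregnant mice and -0.12 in virgin mice. Of 15 genes of the growth hormone and IGF axis 3 rose and 4 fell in virgin mice (11.6% and 14.7% of all genes), 0 were called in pregnant mice and 0 had a called difference. Igfals, the acid-labile subunit gene of that axis, changed by -0.29 ± 0.15 in pregnant mice and by -0.75 ± 0.13 in virgin mice. Of 30 cytokine, chemokine and NF-kB genes 8 rose and 1 fell in virgin mice (11.6% and 14.7% of all genes), 0 were called in pregnant mice, and the neutrophil chemokine gene Cxcl1 changed by 0.75 ± 0.40 in pregnant mice and rose by 1.26 ± 0.28 in virgin mice.

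Liver identity was checked with 13 hepatocyte markers, whose mean log2 value lay between 12.20 and 12.27 in pregnant formulation arrays and between 12.19 and 12.26 in pregnant untreated arrays. It lay between 12.53 and 12.62 in virgin formulation arrays and between 12.53 and 12.61 in virgin untreated arrays. Alb changed by 0.05 ± 0.06 in pregnant mice and -0.03 ± 0.05 in virgin mice. The 10 placental and trophoblast markers averaged between 2.67 and 2.91 over the pregnant arrays. The 18 neutrophil markers averaged 4.64 to 5.11 in pregnant formulation arrays and 4.31 to 4.64 in pregnant untreated arrays, and 4.50 to 5.17 in virgin formulation arrays and 4.26 to 4.38 in virgin untreated arrays. Their median change was 0.30 in pregnant mice, where 0 were called and 6 had an unadjusted p under 0.05 (beside 2435 of 19938 genes), and 0.32 in virgin mice, where 8 rose (11.6% of all genes). The 22 endothelial markers had a median change of -0.32 in pregnant mice, where 0 were called and 12 had an unadjusted p under 0.05, and -0.26 in virgin mice, where 9 fell (14.7% of all genes). Kdr, a VEGF receptor gene, changed by -0.77 ± 0.24 in pregnant mice and -0.39 ± 0.11 in virgin mice. For the difference of responses limma called 0 markers of neutrophils (0 at an unadjusted p under 0.05) and 0 endothelial markers (1 at an unadjusted p under 0.05). Fewer cells of a type and less RNA per cell cannot be told apart in whole liver, and the part of these cells in the responses was not tested.

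In the arms given sunscreen with zinc oxide particles, set against the same untreated arrays, the difference of responses was called for 11 probe sets with microparticles (0.0470%) and 10 with nanoparticles (0.0427%). Against the mean of both particle arms, which uses no untreated array, the formulation gave 0 called probe sets in pregnant mice (0.00%, with 1412 at an unadjusted p under 0.05 in limma) and 1580 in virgin mice (6.75%). The pregnant value minus the virgin value of that contrast was called for 61 probe sets (0.261%).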

How the data were processed

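Affymetrix whole-transcript arrays measured liver RNA of 46 mice. RMA was run by the authors, per the submitters' processing notes, and left log2 intensities as deposited, and its version is not given in the sources used here. The table holds 35512 probe sets, of which 21789 match 1 gene symbol, 1621 several and 12102 none in the platform annotation, and the 23410 with a symbol were tested. Where a gene had several probe sets, the one with the highest mean over the 46 arrays stood for it, giving 19938 genes. No values were normalized again, and no pair of arrays was identical (0 pairs).

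Responses were fitted with limma 3.58.1 in R 4.3.3 (lmFit and eBayes, two-sided, Benjamini-Hochberg) over the 4 arms of each experiment, and the difference of responses in 8 groups over all 46 arrays. Tables were made with Python 3.11.15, pandas 2.3.3, numpy 2.4.6, scipy 1.17.1 and matplotlib 3.10.9. Groups came from the sample labels, which call the mice biological replicates. Precision is limited by the number of arrays: the median SE of a log2 change was 0.105 in pregnant mice, 0.0912 in virgin mice and 0.141 for the difference, over genes.

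Each fit was tested on simulated data of 23410 probe sets with 100 changed 1.5-fold and 100 changed 2-fold. It found 61 and 95 for the difference, 86 and 100 in pregnant mice, and 87 and 99 in virgin mice, with 6, 6 and 4 false calls. The simulated noise was normal and independent between probe sets, at each probe set's own spread within groups. No variation shared across an array, such as its width, was simulated. These counts therefore do not tell how the fits behave under the shared variation of the real arrays. Genes were named by size: the 12 largest called differences in each direction, the 8 largest changes shared by both experiments, a set of genes taken from earlier results and up to 5 per gene list, called ones first. The gene lists and comparisons were chosen with earlier results of these data known. Alternatives changed the filter, the probe sets tested, the moderation, weights, normalization, covariates, replicate block and arrays in the fit.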

Additional observations from a re-analysis of the deposited data

Results flagged for a closer look

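The response to the formulation differed between pregnant and virgin mice in limma's test of the difference itself for the 29 genes named above. Among genes with a lower response in pregnant mice the difference of log2 changes was -3.18 for Jun, -2.67 for Btg2, -2.59 for Dusp1, -2.52 for Egr1 and -2.35 for Atf3. It was -2.17 for Fos, -1.91 for Zfp36, -1.53 for Ier2, -1.42 for Nr4a1 and -1.20 for Mt1. It was -0.86 for Krtap5-3, -0.59 for Pla2r1 and -0.56 for Cd22. Among genes with a higher response in pregnant mice it was 1.73 for Slc10a2, 1.48 for Keg1, 1.46 for Hsd3b2, 1.43 for Cyp2c67 and 1.10 for Vamp7. It was 1.06 for Ces3a, 0.77 for C8b, 0.71 for Apoa4, 0.67 for Ugt2b38 and 0.66 for Ntrk2. It was 0.63 for 1810037I17Rik, 0.52 for Derl2, 0.42 for Tmem30a, 0.43 for Slc39a11 and 0.46 for Eif1b. It was 0.50 for Serpina1c.

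Single arrays stood far from the rest of their group in 24 of 260 groups of values examined. The criterion, Dixon's at 95%, marks about 1 in 20 groups by chance, but the genes were chosen by their values and share arrays, so the number was not tested against chance. Virgin formulation replicate 5 had log2 values of 6.99 for Cyp2c67, 6.24 for Vamp7, 8.64 for Tmem30a and 8.71 for Gclc. Pregnant untreated replicate 5 had log2 values of 6.83 for Ppp1r3g, 6.69 for Kdr and 7.93 for Cyp7b1. Virgin formulation replicate 3 had log2 values of 7.56 for Zfp36, 9.64 for Ppp1r3g and 9.84 for Pdk4. Virgin formulation replicate 4 had log2 values of 6.41 for Saa1, 7.93 for Saa2 and 9.53 for Orm2. Pregnant formulation replicate 1 had log2 values of 5.35 for Dusp1 and 6.16 for Zfp36. Pregnant formulation replicate 5 had log2 values of 11.92 for Orm1 and 11.18 for A1bg. Pregnant untreated replicate 4 had log2 values of 5.20 for Saa1 and 11.04 for Pdia3. Pregnant formulation replicate 2 had 3.86 for Cd22. Pregnant formulation replicate 3 had 9.60 for C8b. Pregnant formulation replicate 6 had 3.27 for Ntrk2. Pregnant untreated replicate 1 had 3.47 for Pla2r1. Virgin untreated replicate 6 had 6.37 for Ier2. No explanation of these arrays was tested.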

How the results depend on the processing

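The 34 called differences became 11 with the replicate number as a block and 12 with array width as a covariate, and lay between 26 and 45 in the other settings and between 18 and 43 with an array left out. The labels do not say that a number marks a shared litter or day, and the numbers were not taken to pair the mice. Same-numbered arrays correlated at 0.02 to 0.16 in the pregnant experiment, where 4 of 5 formulation arrays matched their own number best, a hint from the data of shared deviations, and at -0.24 to 0.04 in the virgin one, where 0 of 6 did. All 9 genes called under the block were among the 29. With the compared groups alone 29 genes were called, of which 19 were among these 29. The 14 pregnant calls became 6 over all probe sets, 39 with array weights, 8 with the replicate block, 4 with array width, 5 with the clock score, 53 with the compared groups alone and 77 in the fit of 8 groups, and lay between 5 and 19 with an array left out. The 6203 virgin calls became 352 with a 1.5-fold minimum, 3971 and 4009 with quantile normalization within each experiment and over all arrays, 179 with array width and 2568 with the clock score, and lay between 4344 and 6772 with an array left out. The share of virgin-called genes changed the same way in pregnant mice, 86.5%, became 88.9% without dim probe sets, 87.5% over all probe sets, 84.8% with array weights, 85.2% with either quantile normalization, 88.2% with the block, 74.5% with array width and 79.0% with the clock score, and lay between 83.1% and 87.9% with an array left out. The cause of these shifts was not tested. Jun, Btg2, Atf3, Fos, Zfp36, Nr4a1, Krtap5-3 and Cyp2c67 kept a called difference in all 10 alternatives and all 23 fits with an array left out. No named change reversed while called.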

Other observations

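The arms given sunscreen with zinc oxide particles offer other liver responses, from other treated mice, and these comparisons were chosen after the values were seen. They share the untreated arrays with the formulation response, so their values are set side by side only. Jun changed by 0.51 ± 0.30 with microparticles and by 1.32 ± 0.30 with nanoparticles in virgin mice, and Fos by 0.15 ± 0.26 and 0.49 ± 0.26. Mt1 changed by 1.53 ± 0.17 and 1.38 ± 0.17 in virgin mice, and Orm2 by 3.15 ± 0.26 and 2.61 ± 0.26. The virgin rise with nanoparticles was called for Jun, Btg2, Atf3, Dusp1, Zfp36 and Nr4a1, beside 7.61% of all probe sets called in either direction. It was not called for Fos, Egr1 or Ier2. With microparticles limma called no rise of these immediate early genes in virgin mice. In the difference of responses between pregnant and virgin mice the neurotrophin receptor gene Ntrk2 was called with both, at 0.85 ± 0.15 and 0.98 ± 0.15, and the bile acid transporter gene Slc10a2 with nanoparticles, at 2.06 ± 0.35 (limma adjusted p = 0.00405), as was Apoa4 at 0.75 ± 0.14 (limma adjusted p = 0.0136). Saa3 was called with microparticles, at 3.92 ± 0.81 (limma adjusted p = 0.0343). Ntrk2 is measured by a dim probe set.

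The contrast of the formulation with the mean of both particle arms was also taken as pregnant value minus virgin value. It was -2.54 ± 0.37 for Jun, -1.50 ± 0.22 for Nr4a1 and -1.93 ± 0.32 for Fos (limma adjusted p = 0.000205, 0.000205 and 0.00227). It was also called for Btg2 (-1.99), Atf3 (-1.87), Ier2 (-1.21), Egr1 (-2.03), Hsd3b2 (1.18) and Ugt2b38 (0.57). It was not called for Dusp1 (-1.04 ± 0.49), Mt1 (-0.25 ± 0.21), Slc10a2 (-0.04 ± 0.30), Saa1 (-0.49 ± 0.60) or Orm2 (-0.13 ± 0.33). These values use the same formulation arrays as the report and are no independent repeat of it.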
